A study of Saccharomyces cerevisiae with 30 samples.

Results

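The transcripts described here code for the cytosolic translation factors of Saccharomyces cerevisiae, the proteins that start, extend and end protein synthesis on the ribosome. They were chosen as 44 named genes, matched by symbol in the authors' deposited comparison table of time point 2 and joined by gene identifier to the deposited counts, in which 43 of the 44 were found among 7127 features. RNA was sequenced from chemostat cultures of the CEN.PK122-alpha background in low-glucose medium, where oxygen use rises and falls in the yeast metabolic cycle. Both strains were first grown with ample nutrients and constant oxygen, then starved, and then fed slowly with low-glucose medium. One strain was wild type (WT) and the other carried yaf9W89A, a substitution in the pocket of the YEATS domain of Yaf9 (W89A below). Yaf9 is a subunit of the SWR1 histone exchange complex and of the NuA4 histone acetyltransferase. Each of 5 time points was sampled in 3 consecutive cycles per strain, which gives 10 groups of 3 libraries and 30 libraries in all. No separate cultures or clones were stated, so p-values measure the spread between cycles and the strain cannot be told apart from its culture.

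Protein synthesis starts when the cap-binding complex eIF4F and the poly(A)-binding protein bring a messenger RNA to a small ribosomal subunit that carries eIF2 with the initiator tRNA, eIF3, eIF1 and eIF1A. The factor eIF2B recharges eIF2 with GTP and is the step that the kinase Gcn2 holds back when amino acids are short. Elongation uses eEF1A to deliver tRNAs, eEF2 to move the ribosome and, in fungi, the ATPase eEF3. The release factors eRF1 and eRF3 end the chain, and the ATPase Rli1 splits the ribosome for reuse. In the yeast metabolic cycle, genes for making ribosomes and for translation are known for a burst of transcripts in the oxidative phase.

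Several factors are made from a pair of duplicated genes, and in the eEF3 pair and the DEAD-box helicase pair the copies followed different courses over the cycle. The upstream sequences of these pairs are set side by side here. Copies of other pairs, such as TEF4 and CAM1 or TEF1 and TEF2, also had their highest WT means at different time points. Their windows are not printed. The lines give, 5′ to 3′ on the gene's strand, 250 bases before and 50 bases from the start codon on, read from the RefSeq R64 genome of S. cerevisiae. The windows are chrXII:636530-636829 for YEF3 and chrXIV:606069-606368 for HEF3 (the eEF3 pair, both on the plus strand), and chrXV:722661-722960 for DED1 (plus) and chrXVI:326215-326514 for DBP1 (minus; the DEAD-box helicase pair). Capitals mark matches, on either strand, to the core letters of the RRPE element (AAATTTT, reverse AAAATTT), the PAC element (GATGAG, reverse CTCATC) or the stress element (AGGGG, reverse CCCCT). RRPE and PAC are elements known from promoters of ribosome biogenesis genes, and AGGGG is bound by the stress activators Msn2 and Msn4.
YEF3: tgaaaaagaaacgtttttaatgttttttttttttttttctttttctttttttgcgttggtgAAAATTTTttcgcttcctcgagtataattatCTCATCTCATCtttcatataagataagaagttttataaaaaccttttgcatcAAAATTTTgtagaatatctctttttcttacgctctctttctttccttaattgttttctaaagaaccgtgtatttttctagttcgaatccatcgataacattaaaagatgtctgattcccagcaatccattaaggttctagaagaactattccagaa
HEF3: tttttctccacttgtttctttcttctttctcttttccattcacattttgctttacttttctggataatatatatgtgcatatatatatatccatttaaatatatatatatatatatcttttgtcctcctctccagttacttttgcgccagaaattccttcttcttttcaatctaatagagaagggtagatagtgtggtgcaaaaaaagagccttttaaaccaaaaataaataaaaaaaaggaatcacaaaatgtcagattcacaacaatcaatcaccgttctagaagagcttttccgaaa
DED1: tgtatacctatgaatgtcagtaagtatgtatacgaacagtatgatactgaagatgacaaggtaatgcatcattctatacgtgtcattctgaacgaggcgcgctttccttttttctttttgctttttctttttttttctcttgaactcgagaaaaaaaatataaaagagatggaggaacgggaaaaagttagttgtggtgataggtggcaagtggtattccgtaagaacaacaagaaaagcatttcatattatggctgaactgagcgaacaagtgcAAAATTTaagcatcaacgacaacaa
DBP1: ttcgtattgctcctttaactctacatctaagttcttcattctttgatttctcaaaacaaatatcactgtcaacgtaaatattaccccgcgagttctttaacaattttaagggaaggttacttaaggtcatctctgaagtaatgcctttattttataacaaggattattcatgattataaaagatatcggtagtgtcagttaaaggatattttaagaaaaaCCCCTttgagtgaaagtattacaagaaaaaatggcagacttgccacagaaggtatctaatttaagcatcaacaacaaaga

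YEF3 held both elements of ribosome biogenesis genes upstream of its start codon, with RRPE cores at positions -189 and -106 and PAC cores at -158 and -153, counted from the A of the start codon to the first base of a match. HEF3 held none of the letters searched. DED1 held its only RRPE core at 26, inside the coding region, and DBP1 held a stress element core at -30. A match describes the letters of a window and says nothing of binding.

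Library totals ranged from 16540627 to 20260295 counts. All 43 genes passed the filter on low counts, which kept 6256 genes. The remaining member, HYP2 (YEL034W), which codes for the main form of eIF5A, was listed at 0 in all 30 libraries, while the feature YEL034C-A on the opposite strand over it held 137 to 843 counts per library. HYP2 is therefore given no level and no ratio to its copy ANB1. The 2 copies have 90.9% identity of coding sequence, with a longest identical run of 43 bases. Whether reads of HYP2 were counted in ANB1, which has few counts, was not tested. Of the other members, 6 overlap another feature, none of which held more than 52 counts in a library. In all, 3 pairs of copies are nearly identical in their coding sequence, so their reads are uncertain between copies: TIF1 and TIF2 (99.5% identity, 6 differing bases), EFT1 and EFT2 (99.8%, 4 bases) and TEF1 and TEF2 (99.9%, 2 bases). A base substitution in YAF9 does not show in counts per gene, so the strain labels were not checked that way.

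Levels are given as CPM, counts scaled to a common TMM-normalised library size, and tests come from a single edgeR fit of all 30 libraries with Benjamini-Hochberg (BH) adjustment over 6256 genes and a threshold of 0.05. In bulk libraries a smaller share of cells with a transcript and less of it per cell cannot be told apart. The third-cycle library of W89A time point 3 stood apart from the other 2 of its group: the members' median, on the log2 scale against the WT mean of each gene, was 0.68 there and 0.11 and 0.24 in the others. At W89A time point 4 the third-cycle library had -0.58 against -0.83 and -1.002, and at WT time point 1 the library of the first cycle had 0.76 against 0.49 and 0.53. Counts of calls, ratios of copies and shares that rest on these libraries are given also without them, where that changes a call or moves a value by over 1.5 times. For ratios, shares, times of peak and positions between time points, leaving these libraries out was chosen after the data were seen. W89A libraries 20 and 19 are used as time points 4 and 5, as in the authors' comparison tables, and not in the order of their titles. The common estimate of spread (biological coefficient of variation) was 0.1639 in the order used, 0.1995 in the title order and 0.1636 without both libraries. Which order is right was not tested.

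In WT, transcripts of translation factors were at their highest at time point 2 and at their lowest at time point 4. The time point of the highest mean was 2 for 36 of the 43 genes, against 1849 of the 6256 genes tested. Initiation factors, elongation factors and release factors shared this course: all 9 genes of eIF2 and its regulators, all 6 of eIF3, all 3 of start codon selection and subunit joining and all 4 of release, recycling and ribosome binding peaked there, as did 7 of 11 of the cap and poly(A) complex and 7 of 10 elongation genes. The members' median on the log2 scale against each gene's WT mean was 0.58, 0.93, -0.43, -0.68 and -0.41 at time points 1 to 5. All 43 changed over the WT cycle (edgeR F test, BH-adjusted p under 0.05), against 81.5% of all genes tested. The median range between the highest and lowest time point was 1.68 on the log2 scale for the members and 1.05 for all genes tested.

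**Figure D1:**
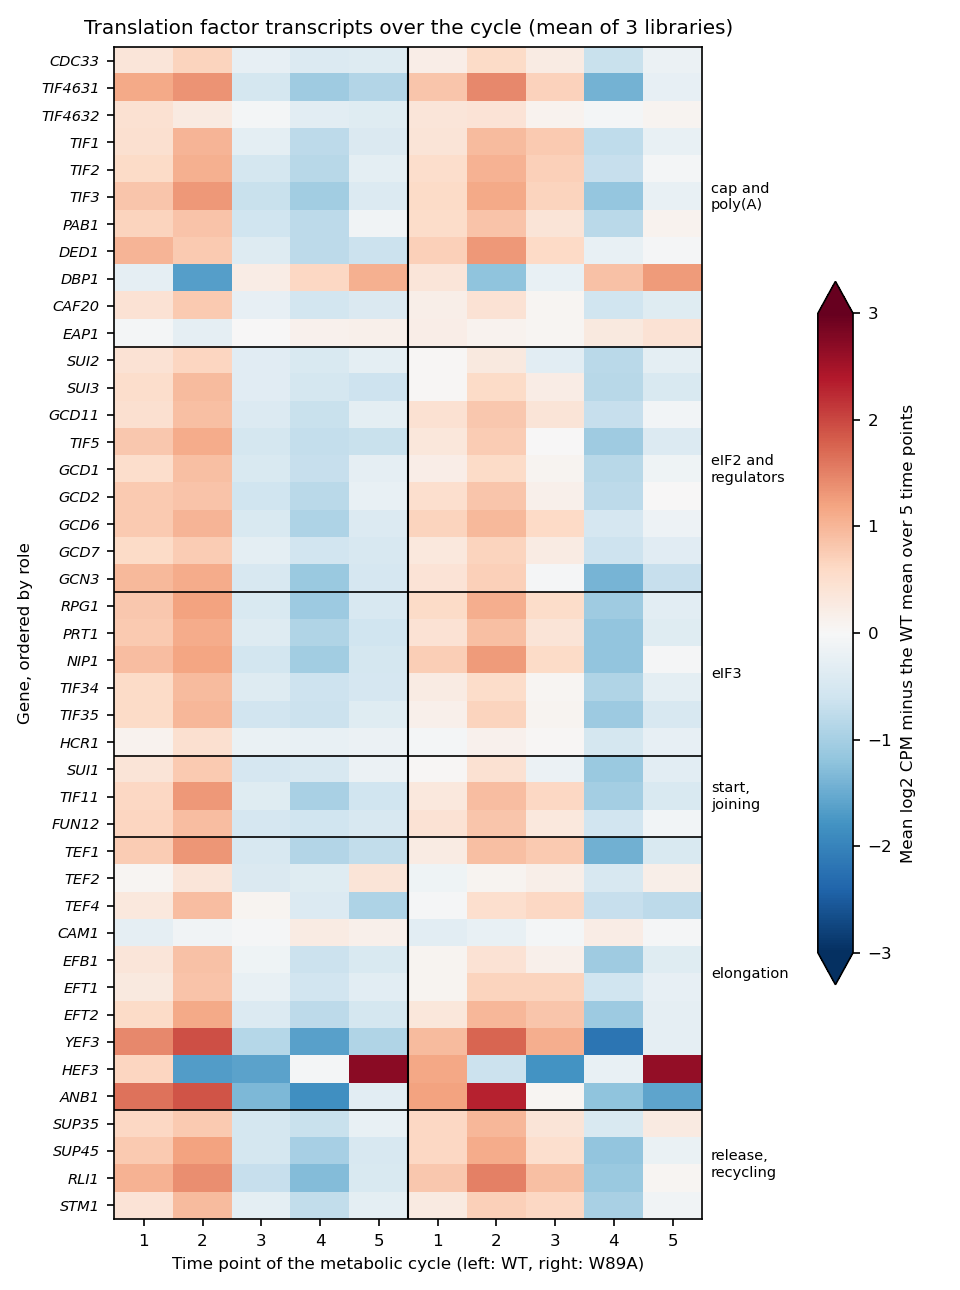
Mean log2 CPM of the 43 translation factor genes (rows, ordered by role) at 5 time points in WT (left) and W89A (right), each minus the gene's mean over the WT time points, with red for higher and blue for lower values and n = 3 libraries per cell. Most rows are red at time points 1 and 2 and blue at 4 in both strains, at time point 3 most rows are blue in WT and red in W89A, and DBP1, HEF3, CAM1 and EAP1 follow other courses.

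The largest movements were in elongation. YEF3, whose product eEF3 is an ATPase that fungi need in every round of elongation, had 11060, 6382 and 6928 CPM in the 3 WT libraries of time point 1 and 10940, 11680 and 11100 at time point 2. It had 1388, 2224 and 1380 CPM at time point 3, 948, 949.9 and 937 at time point 4 and 1601, 1512 and 1611 at time point 5. Every library of time points 1 and 2 was above every library of the later 3 time points. Its range in WT was 3.57 on the log2 scale, or 11.9-fold. RLI1, the recycling ATPase, had group means of 629 ± 114, 798 ± 69.6, 192 ± 35.1, 123 ± 6.04 and 224 ± 26.6 CPM (SD, n = 3) at time points 1 to 5, a range of 2.69. ANB1, the form of eIF5A known from low oxygen, had the same course at a level near the bottom of the count range: the 3 WT libraries had 4.14, 5.14 and 7.66 CPM at time point 2 and 0.197, 0.583 and 0.253 at time point 4.

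Some members went the other way. HEF3, the copy of YEF3, had 3.62, 9.18 and 18.2 CPM in WT at time point 2 and 6.82, 8.51 and 11.8 at time point 3, then 19.8, 25.2 and 35.1 at time point 4 and 153, 227 and 164 at time point 5. At time point 1 it had 21.9, 55.9 and 63.3 CPM. The libraries of time point 5 stood above all others, and the range of 4.38 on the log2 scale (20.8-fold) was the largest of the 43 genes. DBP1, the copy of the helicase gene DED1, had 6.26, 7.92 and 5.31 CPM at time point 2 and 33.2, 53.9 and 42.4 at time point 5, with no overlap. CAM1, for a gamma subunit of eEF1B, and EAP1, for a repressor that binds the cap-binding protein eIF4E, moved least, with ranges of 0.50 and 0.41. Their means were highest at time points 4 and 5, although in both genes the libraries of time points 4 and 5 overlapped. The mean of TEF2 was highest at time point 5 and those of TIF4632 and DED1 at time point 1, but in all 3 genes these libraries overlapped with those of time point 2. DED1, for example, had 834, 539.6 and 548 CPM at time point 1 and 423, 538 and 686 CPM at time point 2.

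Per length of coding sequence the members spanned a wide range of levels. In WT, averaged over the 5 time points, TEF2 had 3150 CPM per kilobase, TEF1 2395, EFB1 1917 and YEF3 1502. At the other end were ANB1 with 5.19 CPM per kilobase, DBP1 with 13.3, TIF4632 with 13.9 and HEF3 with 17.5, so the minor copy of 3 duplicated pairs lay among the 4 lowest beside ANB1. As a share of all counts, the 43 genes took 3.81 ± 0.525, 4.68 ± 0.208, 1.96 ± 0.247, 1.46 ± 0.0361 and 1.63 ± 0.0795% (SD, n = 3) at WT time points 1 to 5, and 3.05 ± 0.122, 3.94 ± 0.189, 3.38 ± 0.594, 1.26 ± 0.398 and 1.88 ± 0.0131% in W89A. At time point 3 the W89A libraries had 2.90, 3.19 and 4.04% and the WT libraries 1.80, 2.24 and 1.83%, with no overlap. Without the third-cycle W89A library the mean at time point 3 was 3.05%. Without that of time point 4 the mean there was 1.03%, and without the first-cycle WT library of time point 1 it was 3.51%.

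Other genes of cytosolic translation had the same time of peak in WT, and those of mitochondrial translation did not. All 20 cytosolic tRNA synthetase genes, 133 of 137 cytosolic ribosomal protein genes and 28 of 36 other cytosolic translation genes (chaperones of the ribosome, the eIF2 kinase pathway, diphthamide and hypusine enzymes and RNA surveillance) peaked at time point 2. Of 8 mitochondrial translation factors, 6 peaked at time point 4 and 2 at time point 3. In W89A, 37 of the 43 members peaked at time point 2, and 2 elongation genes, TEF2 and TEF4, at time point 3. Without the third-cycle W89A library of time point 3, 38 peaked at time point 2 and 0 at time point 3. The members' median was 0.36, 0.75, 0.31, -0.80 and -0.23 at W89A time points 1 to 5, on the same scale as in WT. All 43 changed over the W89A cycle (edgeR F test, BH-adjusted), against 75.5% of all genes tested, and the median range was 1.61 on the log2 scale against 0.93 for all genes.

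By the number of genes called, the strains differed most at time point 3, where transcripts of translation factors were higher in W89A than in WT. Of the 43 genes, 34 passed the test as higher and 0 as lower in W89A (edgeR, BH-adjusted p under 0.05), against 28.2% of all genes tested called higher and 22.9% called lower. DESeq2 called the same numbers, 34 and 0, and 0 members were lower at an unadjusted p under 0.05. The median log2 fold change was 0.80 for the members and 0.08 for all genes tested. By role, the genes called higher were 7 of 11 of the cap and poly(A) complex, 8 of 9 of eIF2 and its regulators, 6 of 6 of eIF3, 2 of 3 of start codon selection and joining, 7 of 10 of elongation and 4 of 4 of release, recycling and ribosome binding. In 34 genes every W89A library lay above every WT library, against 32.5% of all genes tested. These are not the same 34 genes as those called. TIF5 was called although its groups overlapped, and CAF20 was not called although its groups did not. Without the third-cycle W89A library that stood apart, 29 were called higher, with a median of 0.59. The 5 that lost their call then were TIF5, GCN3, TIF34, HCR1 and TEF4. GCN3 and HCR1 were also lost without the first-cycle WT library, and GCN3 and TEF4 without the third-cycle WT library.

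A change of scaling shifts the fold changes of all genes alike. With TMM factors from genes other than the 10 of highest abundance and those of mitochondrial DNA, the median of all genes at time point 3 moved from 0.08 to -0.05, the share of calls that were higher moved from 55.3% to 43.2%, and the members had a median of 0.67 with 31 called higher.

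**Figure D2:**
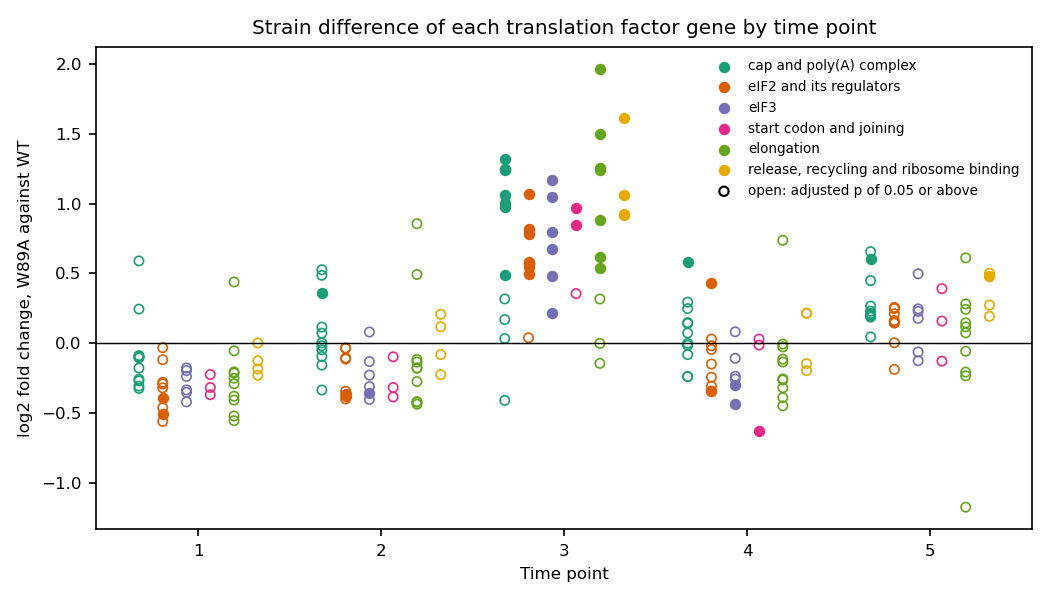
The log2 fold change of W89A against WT for each of the 43 translation factor genes (points, coloured by role) at each time point, with filled points past the BH-adjusted edgeR threshold of 0.05 and n = 3 libraries per strain. At time point 3, 34 points are filled and all lie above 0, while at each of the other time points at most 6 are filled.

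In the cap and poly(A) complex, TIF3, which codes for eIF4B, a partner of the helicase eIF4A, had 116, 189 and 155 CPM in the 3 WT libraries of time point 3 and 302, 354 and 494 in those of W89A. The groups did not overlap, and the log2 fold change was 1.32 ± 0.17 (SE; adjusted p = 8.19e-07), or 2.498-fold. PAB1, for the poly(A)-binding protein, had 387, 429.8 and 356 CPM in WT and 656, 731 and 965 in W89A, a log2 fold change of 1.003 ± 0.12 (SE; adjusted p = 4.08e-07). TIF4631, for the main eIF4G scaffold, had 85.5, 118 and 84.8 CPM in WT and 183, 183 and 319.8 in W89A, a log2 fold change of 1.25 ± 0.24 (SE; adjusted p = 0.000125). For both, all W89A libraries lay above all WT libraries. The eIF4A genes TIF1 and TIF2, which code for the same protein, had log2 fold changes of 1.06 and 1.24, and CDC33, for the cap-binding eIF4E, had 0.49 ± 0.12 (SE; adjusted p = 0.00097).

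The 4 genes of this complex that did not pass included both repressors of eIF4E. EAP1 had 47.03, 44.4 and 37.5 CPM in WT and 37.96, 45.6 and 48.4 in W89A, with overlap, and a log2 fold change of 0.03 ± 0.12 (SE; adjusted p = 0.829). CAF20 had 44.81, 44.28 and 37.75 CPM in WT and 52.63, 46.15 and 59.24 in W89A, without overlap. Its log2 fold change was 0.32 ± 0.16 (SE; adjusted p = 0.103). TIF4632, the minor eIF4G gene, had 0.17 ± 0.15 (SE; adjusted p = 0.361). DBP1 was the only member with every W89A library below every WT library, with 22.98, 24.6 and 23.7 CPM in WT and 21.9, 20.03 and 11.8 in W89A, and its log2 fold change of -0.41 ± 0.27 (SE; adjusted p = 0.205) did not pass.

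Among eIF2 and its regulators, 8 of 9 genes were called higher and the exception was a subunit of eIF2 itself. SUI2, for the alpha subunit that Gcn2 phosphorylates, had 123, 122 and 117 CPM in WT and 109.8, 107 and 155 in W89A at time point 3, with overlap, and a log2 fold change of 0.04 ± 0.11 (SE; adjusted p = 0.781). SUI3, for the beta subunit, had 88.05, 107 and 93.5 CPM in WT and 118, 142 and 168 in W89A, without overlap, and 0.57 ± 0.13 (SE; adjusted p = 0.000588). GCD11, for the gamma subunit, had 0.82 ± 0.13 (SE; adjusted p = 9.24e-06). Whether the 3 subunits differ from each other was not tested.

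The highest value of this group was that of GCD6, for the catalytic epsilon subunit of eIF2B, with 61.1, 63.5 and 52.3 CPM in WT and 108, 113 and 149.7 in W89A. The groups did not overlap, with a log2 fold change of 1.07 ± 0.14 (SE; adjusted p = 6.91e-07). The other eIF2B genes had log2 fold changes of 0.57 (GCD1, gamma), 0.78 (GCD2, delta), 0.54 (GCD7, beta) and 0.49 (GCN3, alpha). The call of GCN3 was lost without the third-cycle W89A library (adjusted p = 0.426), as was that of TIF5, for the GTPase activator eIF5 (adjusted p = 0.155). With all libraries TIF5 had a log2 fold change of 0.58 ± 0.17 (SE; adjusted p = 0.00447).

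All 6 eIF3 genes were called higher. NIP1, for subunit c, had 105, 134 and 109 CPM in WT and 189.8, 216 and 374 in W89A, without overlap, and a log2 fold change of 1.17 ± 0.20 (SE; adjusted p = 2.95e-05). RPG1, for subunit a, had 1.05 ± 0.20 (SE; adjusted p = 7.98e-05), and PRT1, for subunit b, had 0.80 ± 0.18 (SE; adjusted p = 0.000514). HCR1, for the loosely bound subunit j, had 102, 113 and 116 CPM in WT and 121, 120 and 143 in W89A. Its groups did not overlap, but its log2 fold change of 0.22 ± 0.08 (SE; adjusted p = 0.0316) was the lowest of the calls and was lost under the trimmed scaling (adjusted p = 0.378). TIF35 had 0.68 ± 0.14 (SE; adjusted p = 0.000214), and TIF34 had 0.48 ± 0.14 (SE; adjusted p = 0.0057), lost without the third-cycle W89A library (adjusted p = 0.126).

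Of the factors of start codon selection and subunit joining, TIF11, for eIF1A, had 142, 191 and 151 CPM in WT and 274, 305 and 368 in W89A at time point 3. The groups did not overlap and the log2 fold change was 0.97 ± 0.17 (SE; adjusted p = 3.18e-05). FUN12, for eIF5B, had 0.85 ± 0.15 (SE; adjusted p = 2.95e-05). SUI1, for eIF1, had 142, 171 and 172 CPM in WT and 163, 195 and 263 in W89A, with overlap, and its log2 fold change of 0.36 ± 0.16 (SE; adjusted p = 0.071) did not pass.

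Elongation held the largest difference of all members. YEF3 had 1388, 2224 and 1380 CPM in WT and 4786, 5351 and 9374 in W89A at time point 3, with every W89A library above every WT library and a log2 fold change of 1.97 ± 0.33 (SE; adjusted p = 2.7e-05), or 3.91-fold. In the eEF1A pair, TEF1 had 1.25 ± 0.26 (SE; adjusted p = 0.000274) and TEF2 0.62 ± 0.18 (SE; adjusted p = 0.00531). In the eEF2 pair, EFT2 had 1.24 ± 0.20 (SE; adjusted p = 1.24e-05) and EFT1 0.88 ± 0.16 (SE; adjusted p = 6.42e-05). The reads of both pairs are uncertain between copies. ANB1 had 0.808, 0.445 and 0.319 CPM in WT and 1.60, 1.23 and 1.63 in W89A, a log2 fold change of 1.502 ± 0.51 (SE; adjusted p = 0.0151) that was lost without the third-cycle WT library (adjusted p = 0.0784).

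The subunits of eEF1B, which recharges eEF1A, had lower values. EFB1, for the alpha subunit, had 0.32 ± 0.16 (SE; adjusted p = 0.11) and did not pass. TEF4, for a gamma subunit, had 0.54 ± 0.18 (SE; adjusted p = 0.0155), lost without the third-cycle W89A library (adjusted p = 0.105). Its copy CAM1 had 479.5, 443 and 489.8 CPM in WT and 477, 487 and 447 in W89A, with overlap and a log2 fold change of -0.00 ± 0.12 (SE; adjusted p = 0.993). HEF3 had 6.82, 8.51 and 11.8 CPM in WT and 11.99, 6.68 and 6.01 in W89A, also with overlap, and -0.14 ± 0.50 (SE; adjusted p = 0.83).

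All 4 genes of release, recycling and ribosome binding were called higher. RLI1 had 185, 229 and 159.9 CPM in WT and 476, 506 and 774 in W89A, without overlap, and a log2 fold change of 1.61 ± 0.19 (SE; adjusted p = 1.96e-07), or 3.06-fold. SUP35, for the release factor eRF3, had 105, 137 and 114 CPM in WT and 200.3, 201 and 276 in W89A and 0.93 ± 0.12 (SE; adjusted p = 5.8e-07). SUP45, for eRF1, had 1.06 ± 0.17 (SE; adjusted p = 1.36e-05). STM1, for a protein that holds idle ribosomes, had 577, 739 and 570.4 CPM in WT and 995, 1160 and 1418 in W89A and 0.92 ± 0.17 (SE; adjusted p = 8.59e-05). In RLI1, SUP35 and STM1 every W89A library lay above every WT library.

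At the same time point, 19 of 20 cytosolic tRNA synthetase genes, 126 of 137 cytosolic ribosomal protein genes and 27 of 36 other cytosolic translation genes were called higher in W89A, with median log2 fold changes of 1.05, 1.11 and 0.58. Of the other cytosolic genes 3 were called lower. All 8 mitochondrial translation factors were called lower, with a median of -0.83. The lowest of these was MRF1, the mitochondrial release factor, at -1.23 ± 0.15 (SE; edgeR, BH-adjusted p = 3.85e-07).

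Seen from time point 2, the difference at time point 3 was a smaller step down in W89A. The step difference is the strain difference at time point 3 minus that at time point 2, from the same libraries. It is therefore not independent of the difference at time point 3. From time point 2 to 3 in WT, 38 of the 43 genes fell and 2 rose, against 31.1% and 29.9% of all genes tested, with a median log2 change of -1.33. The 2 that rose were DBP1 (1.87) and EAP1 (0.29). In W89A, 24 fell and 1 rose, against 16.6% and 14.3% of all genes, with a median of -0.45. The count of 24 was 7, 10, 14 and 14 without the W89A library of time point 3 of cycle 1, of time point 3 of cycle 2, of time point 2 of cycle 1 and of time point 2 of cycle 2, and 8 in the title order of libraries 19 and 20. The step itself differed between strains for 36 genes, all with the higher value of the step in W89A, against 19.1% of all genes tested in that direction and 16.8% in the other, in which 0 members were called by edgeR, 1 at an unadjusted p under 0.05 and 1 by DESeq2. The median difference of the steps was 0.95 for the members and 0.05 for all genes, and with the trimmed scaling 0.83 and -0.06. The F test for a strain difference that changes between time points passed for 37 of the 43 genes, against 41.9% of all genes tested, and for 24 in the title order of libraries 19 and 20. That F test includes the libraries of time point 3 as well.

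In level, W89A at time point 3 stood between WT at time points 2 and 3. This position is another reading of the same libraries and not a separate result. The W89A mean of log2 CPM lay between these WT means for 41 of the 43 genes (95.4%), against 51.9% of all genes tested and 134 of 137 cytosolic ribosomal protein genes. Its median position was 0.58 of the way from WT time point 3 to WT time point 2. Without the third-cycle W89A library, 40 genes lay between, against 49.9% of all genes tested, and the median position was 0.46. With all libraries, the exceptions were EAP1, above both, and HEF3, below both. Against WT time point 2, 29 members were lower in W89A time point 3 and 2 higher (edgeR, BH-adjusted), against 22.8% and 23% of all genes tested. Examples are ANB1 with a log2 fold change of -1.92 ± 0.45 (SE; adjusted p = 0.000964), TIF5 with -1.06 ± 0.17 (SE; adjusted p = 1.52e-05) and SUI2 with -0.95 ± 0.11 (SE; adjusted p = 1.97e-07). TIF1, TIF2, EFT1, EFT2, TEF1, TEF2, TEF4, DED1 and STM1 were among the 12 that did not pass.

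**Figure D3:**
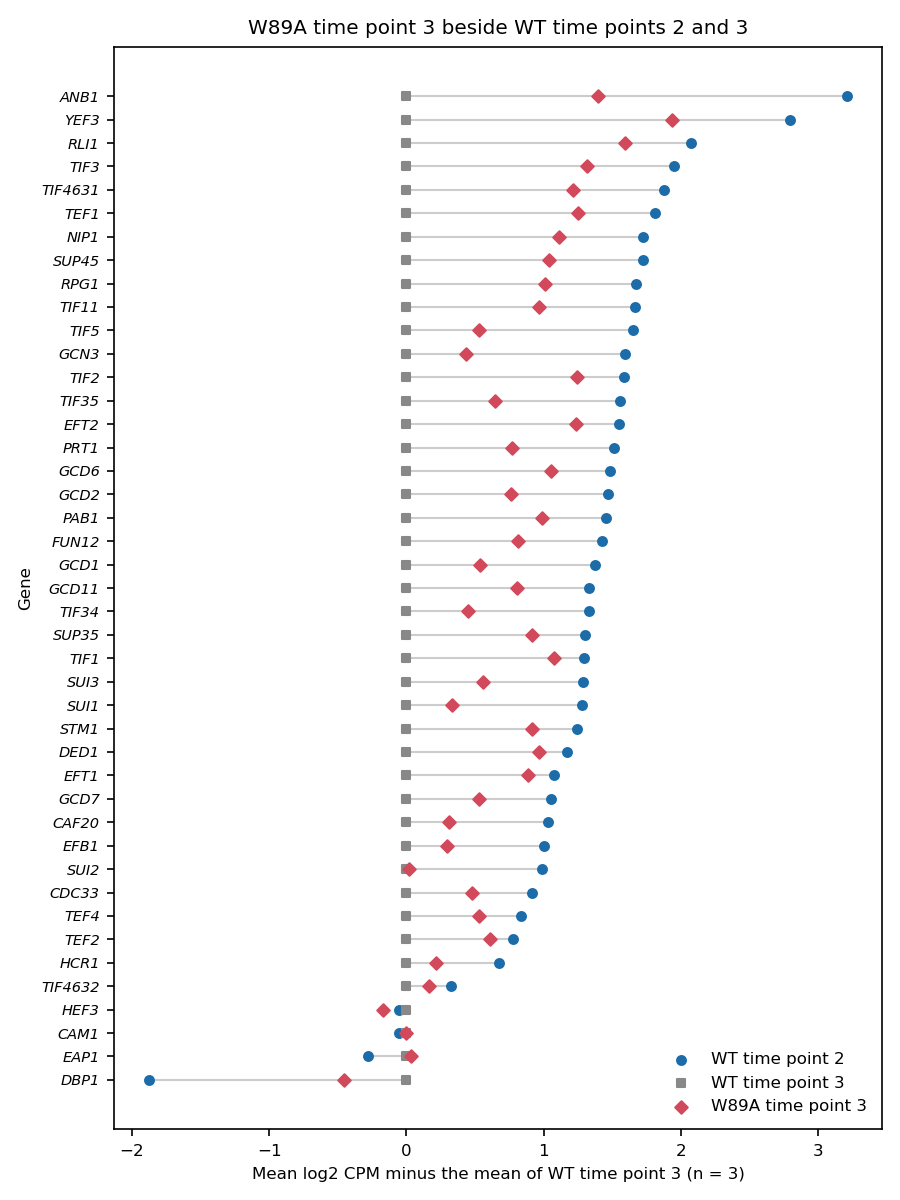
Mean log2 CPM of WT time point 2 (blue circles), WT time point 3 (grey squares, set to 0) and W89A time point 3 (red diamonds) for the 43 translation factor genes, ordered by the WT difference, with n = 3 libraries per point. The red diamond lies between the WT points for 41 genes, and in SUI2 and CAM1 it lies next to WT time point 3.

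The copies of duplicated factors gave ratios that moved over the cycle. The log2 ratio of YEF3 to HEF3, per library and with a pseudocount of 0.5 CPM on both, was 7.51 ± 1.25, 10.27 ± 1.08, 7.44 ± 0.58, 5.16 ± 0.42 and 3.14 ± 0.35 (SD, n = 3) at WT time points 1 to 5 and 6.52 ± 0.67, 9.12 ± 0.82, 9.54 ± 0.95, 4.74 ± 1.56 and 3.82 ± 0.37 in W89A. At WT time point 2 YEF3 was about 1238-fold above HEF3 and at time point 5 8.81-fold. With a pseudocount of 2 CPM the value at WT time point 2 was 10.02, or 1037-fold. Without the first-cycle WT library the log2 ratio at WT time point 1 was 6.79, and without the third-cycle W89A library that at W89A time point 4 was 3.84. At time point 3 the W89A libraries had ratios of 8.58, 9.54 and 10.49 and the WT libraries 7.57, 7.95 and 6.81, with no overlap. No 50-base window of YEF3 is identical in HEF3 (75.1% identity of coding sequence). Of the upstream windows printed above, only that of YEF3 holds both an RRPE and a PAC core.

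DED1 and DBP1, helicases that help the small subunit along structured leaders, had a log2 ratio of 5.18 ± 0.88, 6.29 ± 0.52, 3.30 ± 0.03, 2.49 ± 0.20 and 2.22 ± 0.16 at WT time points 1 to 5 and 4.25 ± 0.38, 6.38 ± 0.70, 4.71 ± 0.66, 2.81 ± 0.24 and 2.61 ± 0.32 in W89A. TIF4631 and TIF4632 had 2.55 ± 0.22, 2.95 ± 0.22, 1.40 ± 0.14, 1.12 ± 0.24 and 1.34 ± 0.23 in WT and 2.34 ± 0.13, 2.91 ± 0.14, 2.45 ± 0.31, 0.51 ± 0.35 and 1.55 ± 0.17 in W89A. In both pairs the ratio of the major to the minor copy was highest at time point 2 in both strains. The ratio of TEF4 to CAM1 went from 1.88 ± 0.09 at WT time point 2 to -0.25 ± 0.17 at time point 5, where CAM1 had the higher CPM. In W89A these ratios were 1.57 ± 0.05 and 0.11 ± 0.18. The genes of these 3 pairs have 67.7 to 73.0% identity of coding sequence.

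The near-identical pairs are described with the reservation that reads may be split wrongly. TEF1 to TEF2 had a log2 ratio of 0.06 ± 0.22, 0.34 ± 0.06, -0.69 ± 0.17, -1.17 ± 0.03 and -1.77 ± 0.13 at WT time points 1 to 5, from more TEF1 at time point 2 to more TEF2 at time point 5. The ratio of EFT1 to EFT2 was -1.36 ± 0.05 at WT time point 2 and -0.85 ± 0.02 at time point 4, and that of TIF1 to TIF2 lay between 0.97 ± 0.03 and 1.35 ± 0.08. No test was run on ratios.

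**Figure D4:**
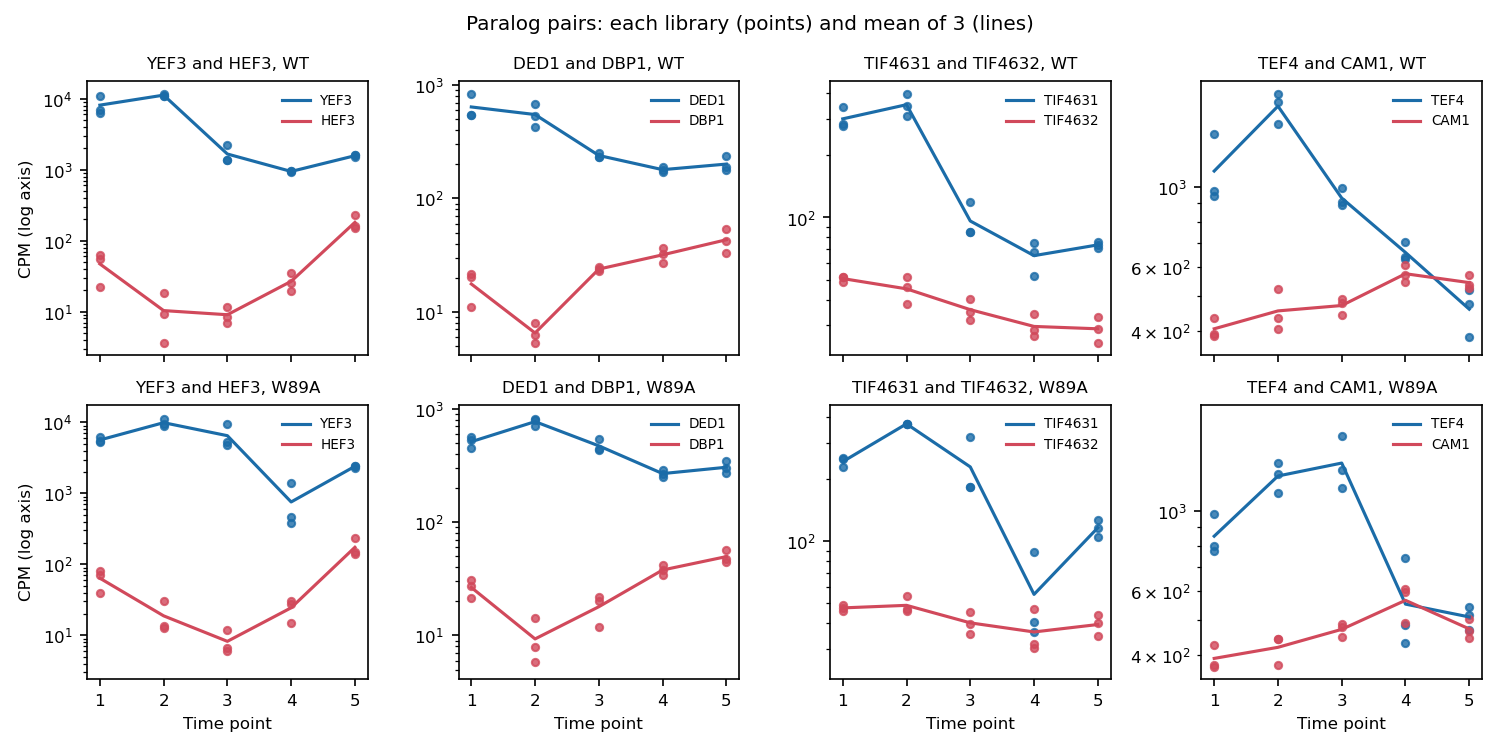
CPM on a log axis of 4 pairs of copies (columns) in WT (upper row) and W89A (lower row) by time point, with a point for each library and a line through the mean of n = 3. YEF3, DED1, TIF4631 and TEF4 are higher at time points 1 and 2 than later in WT, HEF3 and DBP1 have their highest means at time point 5, and at time point 3 the blue lines stand higher in W89A than in WT.

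At the other time points few members differed between the strains. At time point 1, 2 were lower in W89A and 0 higher (edgeR, BH-adjusted), against 3.60% and 4.41% of all genes tested. At an unadjusted p under 0.05, 13 were lower and 2 higher, and DESeq2 called 5 and 0. The 2 genes called were SUI3 at -0.51 ± 0.13 (SE; adjusted p = 0.0177) and SUI2 at -0.40 ± 0.10 (SE; adjusted p = 0.0229). The members' median was -0.25 against -0.01 for all genes, and in 20 genes every W89A library lay below every WT library and in 1 above, against 19.1% and 16% of all genes. The count of calls changed when single libraries were left out. Without the first-cycle WT library that stood apart, 0 were called (adjusted p = 0.148 for SUI3). Without the W89A library of cycle 2 or of cycle 3 at this time point 0 were called as well, and 1 was without that of cycle 1. Without the W89A libraries of time point 3 in cycle 3, of time point 3 in cycle 1, and of time point 4 in cycle 1 or 3, 5, 4, 4 and 4 were called.

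At time point 2, 3 members were lower in W89A and 1 higher, against 4.64% and 8.44% of all genes tested, with a median of -0.13. HCR1 had -0.36 ± 0.08 (SE; adjusted p = 0.00622), SUI2 -0.36 ± 0.10 (SE; adjusted p = 0.0226), and SUI3 -0.38 ± 0.13 (SE; adjusted p = 0.0484), while EAP1 had 0.36 ± 0.12 (SE; adjusted p = 0.039). In EAP1 the WT libraries had 34.9, 34.2 and 36.5 CPM and the W89A libraries 41.3, 43.1 and 51.5, without overlap. Leaving out any one of the first- and second-cycle libraries of either strain gave 1 lower and 0 higher. In 12 genes every W89A library lay below every WT library and in 3 above, against 15.7% and 17.3% of all genes tested. EAP1 was also lost without the W89A library of cycle 3. Without the third-cycle W89A libraries of time points 3 and 4, 7 and 5 were called lower.

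At time point 4, 4 members were lower and 2 higher in W89A, against 10.5% and 10.9% of all genes tested, with a median of -0.11. Lower were SUI1 at -0.63 ± 0.16 (SE; adjusted p = 0.00861), HCR1 at -0.30 ± 0.08 (SE; adjusted p = 0.0137), SUI2 at -0.34 ± 0.11 (SE; adjusted p = 0.0227) and TIF35 at -0.44 ± 0.14 (SE; adjusted p = 0.0259). Higher were DED1 at 0.58 ± 0.17 (SE; adjusted p = 0.0158) and GCD6 at 0.43 ± 0.14 (SE; adjusted p = 0.0255). In 6 genes every W89A library lay below every WT library and in 3 above, against 16.9% and 18.1% of all genes tested. The count of 4 lower genes was 15 without the third-cycle W89A library that stood apart, 0 when the third-cycle WT or first-cycle W89A library was left out, and 0 in the title order of libraries 19 and 20. The count of 2 higher genes was 1 without each of the 3 WT libraries of time point 4 or the third-cycle W89A library, and 4 in the title order.

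At time point 5, 2 members were higher and 0 lower, against 5.07% and 4.44% of all genes tested, with a median of 0.20. At an unadjusted p under 0.05, 8 were higher and 1 lower, and DESeq2 called 5 and 0. The genes called by edgeR were DED1 at 0.60 ± 0.17 (SE; adjusted p = 0.025), with 179, 235 and 188 CPM in WT and 344, 298 and 272 in W89A, and SUP35 at 0.48 ± 0.12 (SE; adjusted p = 0.0128), with 144, 151 and 144 in WT and 211, 203 and 197 in W89A. Neither gene's groups overlapped. In 21 genes every W89A library lay above every WT library, against 19% of all genes tested, and in 3 every W89A library lay below, against 16.9%. Without the first-cycle W89A library, without both libraries 19 and 20, and in their title order, 0 were called. Without the third-cycle W89A libraries of time point 3 or 4, which share in the estimate of spread, 7 and 5 were called.

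Averaged over the 5 time points, 16 members were higher in W89A and 3 lower (edgeR, BH-adjusted), against 27.1% and 21.7% of all genes tested, with a median of 0.15 against 0.02. The members' median strain differences were -0.25, -0.13, 0.80, -0.11 and 0.20 at time points 1 to 5. For the members as a set, the average therefore draws mostly on time point 3 and not on a shift throughout the cycle. In the title order of libraries 19 and 20, 10 were higher. The count of 3 lower genes was 7 without the third-cycle W89A library of time point 3 and 6 without that of time point 4. It was 5 with DESeq2 size factors, 6 with the trimmed TMM scaling and 6 with DESeq2. The 16 higher genes held 8 of 11 of the cap and poly(A) complex, 3 of 9 of eIF2 and its regulators, 1 of 6 of eIF3, 1 of 3 of start codon selection and joining, 3 of 4 of release and recycling, and 0 of 10 of elongation (1 at an unadjusted p under 0.05). DED1 had the highest average, 0.46 ± 0.07 (SE; adjusted p = 1.52e-05), followed by RLI1 at 0.44 ± 0.08 (SE; adjusted p = 8.58e-05), SUP35 at 0.37 ± 0.05 (SE; adjusted p = 3.19e-06) and GCD6 at 0.32 ± 0.06 (SE; adjusted p = 0.00011). In DED1 the W89A libraries stood above all WT libraries at time points 2, 3, 4 and 5.

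The 3 lower genes were initiation factors of low strain difference at time point 3: SUI1 at -0.22 ± 0.07 (SE; adjusted p = 0.0158), SUI2 at -0.21 ± 0.05 (SE; adjusted p = 0.000586) and HCR1 at -0.14 ± 0.04 (SE; adjusted p = 0.004). SUI2 had 221, 206 and 193 CPM in WT and 153, 157 and 161 in W89A at time point 1, and 245, 238 and 234 in WT and 182, 185 and 190.4 in W89A at time point 2. It had 111, 111 and 112 CPM in WT and 88.6, 76.1 and 98.7 in W89A at time point 4, and 124, 126 and 123 in WT and 128, 125 and 121 in W89A at time point 5. Its W89A libraries lay below all WT libraries at time points 1, 2 and 4 and overlapped at 3 and 5. EAP1 was above WT in every library at time points 1, 2, 4 and 5 and overlapped at 3, with an average of 0.21 ± 0.05 (SE; adjusted p = 0.00151).

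The RRPE core was more frequent in the windows of these genes than in those of all genes, as a share of windows. The windows include the first 50 bases of coding sequence. On either strand, AAATTTT or AAAATTT, which overlap in AAAATTTT, occurred in 28 of 44 windows (63.6%), against 23.2% of 6007 windows of the same length. In 26 of the 28 a core lay before the start codon, while the matches of PRT1, at 5 and 6, and of DED1, at 26, lie in coding sequence. The PAC core occurred in 9 of 44 (20.5%, against 20.4%), the stress element in 6 (13.6%, against 21.6%), the core ATTGTTC of the repressor Rox1 in 3 (6.82%, against 7.66%), among them ANB1 at -214, and the core ACACCCA of Rap1, a regulator of ribosomal protein genes, in 0 (against 2.25%). The only PAC core of CAF20, at 19, and the only Rox1 core of PAB1, at 28, lie in coding sequence. All 9 members with a PAC core in the window peaked at time point 2 in WT, as did 27 of the 34 without. Of all genes tested with and without the core, 44.5% and 25.9% peaked there.

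Of the 27 measured members with an RRPE core, 26 peaked at time point 2 in WT and 24 were called higher in W89A at time point 3, with a median log2 fold change of 0.88. Of the 16 without, 10 peaked at time point 2 and 10 were called higher, with a median of 0.52. Among all genes tested with a window, 50.4% of 1365 with the core and 23.2% of 4443 without peaked at time point 2. Of the same genes, 48.4% and 23.8% were called higher in W89A at time point 3, and the median log2 fold changes there were 0.32 and 0.01. No test was run on motifs. The values at time point 3 spread widely in both groups, from 0.04 (SUI2) to 1.97 (YEF3) with the core and from -0.41 (DBP1) to 1.502 (ANB1) without.

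**Figure D5:**
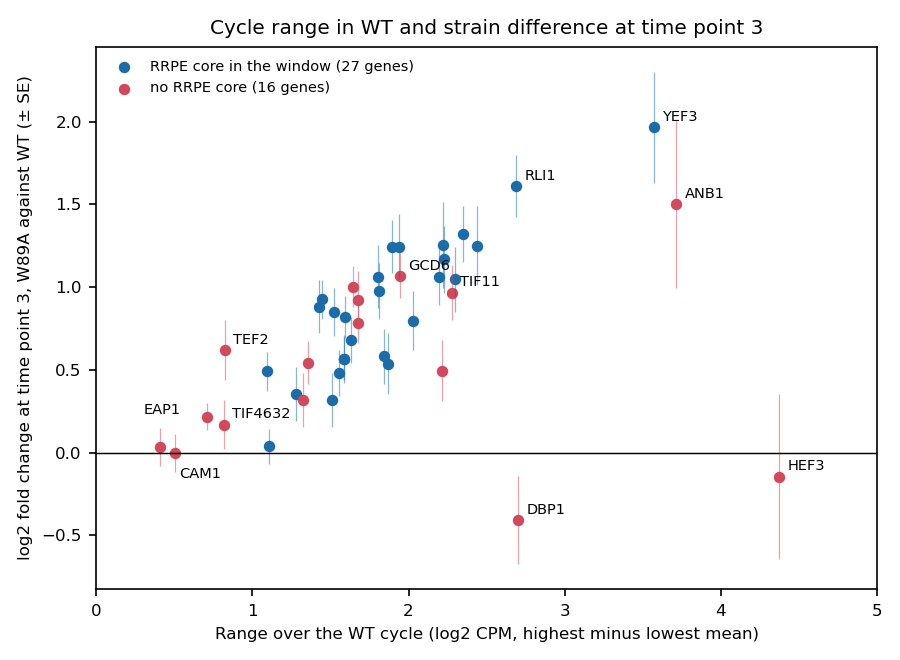
Range over the WT cycle (horizontal axis, log2 CPM) and log2 fold change of W89A against WT at time point 3 (vertical axis, bars are SE) for the 43 translation factor genes, blue with and red without an RRPE core in the window of 250 bases before and 50 after the start; both axes draw on the WT libraries of time point 3 for genes that are lowest there. YEF3 and RLI1 stand at the upper right, and HEF3 and DBP1 combine a large range with a fold change below 0.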

How the data were processed

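Total RNA from 30 libraries was sequenced. The authors deposited raw counts per gene and, per the file headers, 5 comparison tables of W89A against WT with counts scaled per library (signal), FPKM, log2 fold changes and the authors' p-values. Of these only the counts were tested, and the comparison tables gave gene names and the time point of each library. Per the submitters' processing notes the build was mm9, which belongs to the mouse, and no other is named there, while member coordinates in the deposited tables equal those of RefSeq R64 of yeast. The aligner and annotation are not given in the sources used here.

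Counts were tested with edgeR 4.0.16 in R 4.3.3 (limma 3.58.1): TMM, filterByExpr (871 features removed, 6256 tested), 1 mean per group over all 30 libraries, robust quasi-likelihood tests, and BH adjustment at 0.05. Log2 levels used a prior count of 2 and ratios a pseudocount of 0.5 CPM. The script was tested on simulated data. Depth was 16540627 to 20260295 counts per library. Alternatives were DESeq2 1.42.0, other scalings, no filter, the other order of libraries 19 and 20 or neither, near-identical copies summed, cycle as a block, and each library left out.

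The members and lists were chosen with earlier results of these data known. Any member may be named, and values per library are given for duplicated genes and for members at the extremes of fold change, average difference, test of interaction or range. Further members were named after their values were seen.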

Additional observations from a re-analysis of the deposited data

Results flagged for a closer look

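The difference between the strains changed over the time points in 37 of the 43 translation factor genes, against 41.9% of all genes tested. This was by the edgeR test of strain by time point with BH adjustment over 6256 genes. In the title order of libraries 19 and 20 it was 24 genes. In the cap and poly(A) complex, the adjusted p-values of this edgeR test were CDC33 (0.00288), TIF4631 (0.002), TIF1 (0.00415), TIF2 (0.000216), TIF3 (7e-05), PAB1 (0.000104) and DED1 (0.00131). Among eIF2 and its regulators, the adjusted p-values of this edgeR test were SUI2 (0.0275), SUI3 (0.000164), GCD11 (0.000861), TIF5 (0.00163), GCD1 (0.00248), GCD2 (0.000322), GCD6 (0.000172), GCD7 (0.0065) and GCN3 (0.0151). In eIF3, the adjusted p-values of this edgeR test were RPG1 (0.00316), PRT1 (0.00223), NIP1 (0.00151), TIF34 (0.00179), TIF35 (0.000257) and HCR1 (0.00209). For start codon selection and joining, the adjusted p-values of this edgeR test were SUI1 (0.0129), TIF11 (0.000348) and FUN12 (0.000824). In elongation, the adjusted p-values of this edgeR test were TEF1 (0.00104), TEF2 (0.023), TEF4 (0.0126), EFB1 (0.028), EFT1 (0.00175), EFT2 (0.000402), YEF3 (0.000594) and ANB1 (0.0285). For release, recycling and ribosome binding, the adjusted p-values of this edgeR test were SUP35 (0.000672), SUP45 (0.000649), RLI1 (6.78e-05) and STM1 (0.00165). In the step from time point 2 to 3 alone, 36 members differed between the strains, each with the higher value in W89A. Of all genes tested, 19.1% differed in that direction and 16.8% in the other. This step difference contains the strain difference at time point 3. TIF4632, DBP1, CAF20, EAP1, CAM1 and HEF3 did not pass the first test.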

How the results depend on the processing

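No member's called result changed direction under any alternative. Of 12460 values of 322 called member results, 12044 kept their call and 416 lost it. Many of these values come from leaving out 1 library outside the groups compared, which changes little but the estimate of spread. The share kept is therefore no measure of how firm a call is. In the title order of W89A libraries 19 and 20, the count of members lower at time point 1 was 0, higher and lower at time point 2 were 0 and 1, higher and lower at time point 4 were 4 and 0, higher at time point 5 was 0, higher on average was 10, lower from time point 2 to 3 in W89A was 8, and changed in the strain by time point test was 24. With both libraries left out, 0 were lower at time point 4 and 0 higher at time point 5. With DESeq2, 5 were lower at time point 1, 2 higher and 5 lower at time point 2, 5 higher at time point 5, 6 lower on average and 1 lower in the step difference. With DESeq2 size factors in edgeR, 4 were lower at time point 1 and 5 on average. With TMM factors from genes other than the 10 of highest abundance and those of mitochondrial DNA, 4 were lower at time point 1, 6 on average and 2 in the step difference. In each of these cases the cause was not tested. A prior count of 0.5 gave ANB1 a range of 4.03 in WT and 4.17 in W89A, and a pseudocount of 2 gave DED1 to DBP1 a log2 ratio of 3.23 at WT time point 3 and, at WT time point 2, of 6.003 in place of 6.29, and YEF3 to HEF3 10.02 in place of 10.27. Ratios of copies were also taken without the library that stood apart in each of 3 groups, chosen after the data were seen. YEF3 to HEF3 then moved 1.645 times at WT time point 1 and 1.867 times at W89A time point 4. The largest of the other moves was 1.422 times, for DED1 to DBP1 at WT time point 1.

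Leaving out each library in turn gave 0 to 5 members lower at time point 1, 0 to 2 higher and 1 to 7 lower at time point 2, 29 to 36 higher at time point 3, 1 to 2 higher and 0 to 15 lower at time point 4, and 0 to 7 higher at time point 5. It gave 12 to 18 higher and 3 to 7 lower on average, the latter 7 and 6 without the third-cycle W89A libraries of time points 3 and 4. From time point 2 to 3 it gave 1 to 2 higher and 38 to 39 lower in WT, 0 to 1 higher and 7 to 28 lower in W89A, and 31 to 36 higher and 0 to 1 lower in the step difference. W89A time point 3 against WT time point 2 gave 1 to 2 higher and 20 to 30 lower, the strain by time point test 32 to 38, and the tests over the cycle 42 to 43 in WT and 41 to 43 in W89A.

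Cycle numbers did not pair the strains: the median correlation of deviations between same-numbered WT and W89A libraries was 0.062, with 3 of 15 over 0.1. With cycle number as a replicate block, 34 members were higher at time point 3, 36 in the step difference and 37 changed in the strain by time point test. No count moved by over 1.5 times under that block. Cycle within strain, used as a block, lies inside a strain and cannot test a difference in level between strains. The 34 members at time point 3 and the average difference were therefore not checked that way. Among the counts it could test, none moved by over 1.5 times. ANB1, HEF3 and DBP1 had the lowest counts in any single library (2, 63 and 95), so depth limits their lowest values most.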
